A study of Mus musculus with 4 samples.

Results

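A set of 883 genes was listed with RNA signal in male germ cells (prospermatogonia) of the fetal mouse gonad and at exactly 0 in the 3 other sorted cell fractions. The genes were chosen by these signals: a gene had to be above 0 in the male germ library and at 0 in the female germ, male somatic and female somatic libraries. Symbols beginning with Olfr, Vmn, V1r, V2r, Def, Krt, Cyp, Kcn, Zfp, Pcdh, Nlrp, Rhox or Oas were left out. The 883 genes were 4.9% of the 18017 gene rows without these prefixes, and the files held 20299 distinct gene rows in all. Because the rule used the signals, levels and the absence of signal elsewhere are given as descriptions, with no test.

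Gonads came from fetuses of CF1 females mated with TgOG2 males at 15.5 days post coitum (dpc). All fetuses came from this cross, in which the Oct4 (Pou5f1) promoter drives green fluorescent protein (GFP) in germ cells. Flow sorting gave germ cells (GFP-positive) and somatic cells of the gonad (GFP-negative) from each sex, and ribosomal RNA was removed from total RNA before strand-specific paired-end sequencing. The 4 groups were thus germ cells and somatic cells of males and of females, with 1 library each. No replicate check was therefore possible, and the labels do not state how many fetuses a library pooled. In such bulk samples, fewer cells of a type and less RNA per cell cannot be told apart.

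Prospermatogonia, also called gonocytes, are the male germ cells of the fetal testis. After colonising the gonad they stop dividing and stay in mitotic arrest until after birth, while female germ cells of the same age enter meiotic prophase. During this arrest the male germline genome, largely stripped of DNA methylation earlier in development, gains new methylation, including on transposable elements and imprinted regions. The study's title describes transcription at this stage as broad and low in level.

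Signal is given as SPM, the deposited gene signal per 1000000 of the library total after scaling by trimmed-mean-of-M factors. A step in the low values of each library, taken as the worth of 1 sequenced fragment, gave an estimated depth, in units of 1000000 fragments, of 24.9 for male germ, 17.5 for female germ, 17.6 for male somatic and 24.2 for female somatic cells. A count of 0 was set against a floor of 3 fragments, worth 0.113, 0.179, 0.180 and 0.120 SPM in the same order. The male germ library listed 90.4% of gene rows above 0, and the other 3 listed 77.3% to 79.8%. Fixed marker lists held 43 measured genes. They covered germ cells, the male germ program, female germ cells and meiosis, and Sertoli, fetal Leydig, stromal, pregranulosa, endothelial, erythroid and leukocyte cells. None of the 43, among them 10 genes of the male germ program, was in the set. Of the 43, 31 were above 0 in all 4 libraries. Ddx4, a germ cell RNA helicase, was at 527 SPM in male germ and 383 SPM in female germ cells against 3.81 SPM in the male and 0.467 SPM in the female somatic library. Hbb-b1, a globin of red blood cells, was at 157 SPM in the male germ library and 15790 SPM in the male somatic library. The part of sorting carry-over in the male germ signals was not tested.

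Upstream sequence is shown for 6 of the genes, picked because their start regions differ in CpG content. The rule that chose the set did not use this property. Each line holds the 250 bases before the annotated start, 5′ to 3′ along the gene, from the RefSeq table of build GRCm38.p6, with every CG in capitals. Barhl2 (chr5:106458167-106458416, minus strand), a homeobox factor of retina and brain, and Wnt3a (chr11:59290752-59291001, minus strand), a secreted Wnt ligand of the early embryo, stand for CpG-rich starts. Trim61 (chr8:65018689-65018938, minus strand) encodes a tripartite-motif protein and Prame (chrX:135627706-135627955, minus strand) a leucine-rich-repeat protein of germ cells and tumours, and both have an intermediate number of CGs. Klf17 (chr4:117765667-117765916, minus strand), a Krüppel-like zinc-finger factor, and Otc (chrX:10252055-10252304, plus strand), the urea-cycle enzyme ornithine transcarbamylase, have few.
Barhl2: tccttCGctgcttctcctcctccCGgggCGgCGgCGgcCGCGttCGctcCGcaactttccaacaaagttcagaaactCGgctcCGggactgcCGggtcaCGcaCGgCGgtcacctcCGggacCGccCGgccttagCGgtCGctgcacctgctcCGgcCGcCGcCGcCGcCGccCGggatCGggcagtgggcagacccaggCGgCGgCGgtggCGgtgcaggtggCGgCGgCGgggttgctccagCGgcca
Wnt3a: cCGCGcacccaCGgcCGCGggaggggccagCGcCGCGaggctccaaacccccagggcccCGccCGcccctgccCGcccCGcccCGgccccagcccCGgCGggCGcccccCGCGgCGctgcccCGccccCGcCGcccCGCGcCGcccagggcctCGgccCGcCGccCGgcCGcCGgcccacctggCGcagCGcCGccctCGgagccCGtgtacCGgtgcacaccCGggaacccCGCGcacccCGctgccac
Trim61: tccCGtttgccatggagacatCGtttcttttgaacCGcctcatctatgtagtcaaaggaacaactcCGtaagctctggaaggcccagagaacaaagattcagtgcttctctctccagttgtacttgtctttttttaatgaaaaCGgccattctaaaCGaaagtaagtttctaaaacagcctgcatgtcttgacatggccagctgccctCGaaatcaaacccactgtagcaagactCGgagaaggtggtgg
Prame: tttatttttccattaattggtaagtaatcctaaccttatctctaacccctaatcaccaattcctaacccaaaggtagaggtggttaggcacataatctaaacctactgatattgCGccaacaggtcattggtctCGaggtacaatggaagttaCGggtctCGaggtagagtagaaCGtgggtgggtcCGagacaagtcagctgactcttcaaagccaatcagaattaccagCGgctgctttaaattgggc
Klf17: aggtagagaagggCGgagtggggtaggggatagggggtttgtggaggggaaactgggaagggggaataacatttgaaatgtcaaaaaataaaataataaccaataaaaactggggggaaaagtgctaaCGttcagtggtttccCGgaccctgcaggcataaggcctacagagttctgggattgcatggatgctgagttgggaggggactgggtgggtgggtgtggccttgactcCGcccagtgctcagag
Otc: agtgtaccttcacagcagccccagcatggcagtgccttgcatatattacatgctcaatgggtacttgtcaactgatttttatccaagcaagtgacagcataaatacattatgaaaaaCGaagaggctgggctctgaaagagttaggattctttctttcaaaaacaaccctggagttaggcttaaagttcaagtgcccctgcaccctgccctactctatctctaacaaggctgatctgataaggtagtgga
The windows held 36 CGs in Barhl2, 41 in Wnt3a, 8 in Trim61, 7 in Prame, 4 in Klf17 and 1 in Otc.

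The same rule applied to each other library gave far fewer genes. Signal in female germ cells alone was listed for 48 genes (0.266%), in male somatic cells alone for 33 (0.183%) and in female somatic cells alone for 57 (0.316%). A further 562 of the 18017 genes were at 0 in all 4 libraries, and 16572 were above 0 in at least 1 library other than male germ. Thinning the male germ library to the depth of the shallowest library left an expected 784.7 genes. The excluded prefixes would have added 381 genes with signal in male germ cells alone, among them 212 of 1110 olfactory receptor (Olfr) rows, 82 of 313 vomeronasal receptor (Vmn) rows and 40 of 108 cytochrome P450 (Cyp) rows.

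Most of the 883 genes were listed at a few fragments. The median level was 0.155 SPM (quartiles 0.0640 and 0.421 SPM), or 4.14 estimated fragments. Per kilobase of listed gene length the median was 0.114 SPM, against 4.91 SPM for the 16311 other genes above 0 in male germ cells. Under 1 fragment were 102 genes, 552 genes (62.5%) reached 3 fragments, 245 reached 10 and 16 reached 100. These counts allow for the rounding of the signal by 0.5. The 27 genes at a signal of 12 (0.110 SPM), just under the printed floor, count as 3 fragments and the 65 at a signal of 4 as 1 fragment. Without this allowance 525 genes reached 3 fragments and 167 were under 1. A level of 1 SPM was reached by 89 genes (10.1%) and 5 SPM by 10. By comparison, 83.4% of the other genes above 0 in male germ cells reached 1 SPM.

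Together the genes held 545.1 SPM, 0.0583% of the male germ library's signal. Rbmy1a1 supplied 24.8% of that sum and the 12 genes with the highest signal 41.4%, so the set consisted of a few higher genes and a long low tail. The male germ level lay above the 3-fragment floors of all 3 other libraries for 426 genes (48.2%). It was at least 4-fold above each floor for 132 genes, at least 10-fold for 43 and at least 30-fold for 8. The remaining genes were at or below the floor of at least 1 other library, so a difference from that library was not detectable at this depth.

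**Figure D1:**
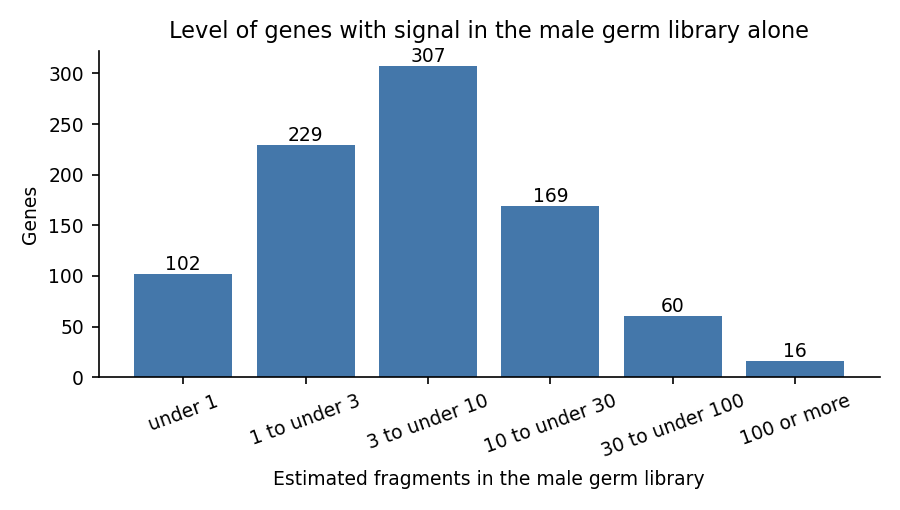
Number of genes (y axis) by estimated fragments in the male germ library (x axis), for the 883 genes listed at 0 in the other 3 libraries. The bin of 3 to under 10 fragments is the largest, with 307 genes, and 16 genes reach 100 fragments.

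The genes at the top of the range have varied textbook roles. Rbmy1a1, a multicopy Y-linked gene for an RNA-binding protein of male germ cell nuclei, had the highest level. Its listed row (mm9 chrY:2156898-2398856, plus strand) held 135 SPM in male germ cells (95% Poisson interval 131 to 140) and 0 in the other 3 libraries. This was at least 752-fold above the female germ floor, 748-fold above the male somatic floor and 1127-fold above the female somatic floor. Its Y linkage means that female cells lack the gene, so male somatic cells are the informative comparison. Rbmy genes exist in many near-identical copies, so the value may sum or split reads of several of them.

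Trim61 was next at 19.7 SPM (18.0 to 21.4; mm9 chr8:67536874-67542587, minus strand), at least 110-fold above the female germ floor, 109-fold above the male somatic and 164-fold above the female somatic floor. The neighbouring Trim60, a gene of the same tripartite-motif family with the same listed start region on the same strand, was itself in the set at 2.96 SPM. Because the rows of these genes overlap, reads may have been divided between them. Prame, on the X chromosome (mm9 chrX:132147540-132162244, minus strand), was at 15.1 SPM (13.7 to 16.7), at least 84.2-fold above the female germ, 83.7-fold above the male somatic and 126-fold above the female somatic floor.

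The 3 highest genes therefore lay on chromosomes Y, 8 and X. Klf17 was at 8.34 SPM (7.27 to 9.50; mm9 chr4:117429263-117438271), at least 46.5-fold above the female germ floor. Fabp9, a fatty-acid-binding protein known from spermatids, was at 8.13 SPM (7.10 to 9.30; mm9 chr3:10193623-10197222). Cdr1, an X-linked gene at 7.21 SPM (6.22 to 8.30; mm9 chrX:58436420-58438733), lies opposite a locus known to give a circular RNA, and whether counting separated the strands was not stated in the labels.

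Genes of patterning, brain and liver came after these. En1, the homeobox factor of the midbrain-hindbrain boundary, was at 5.59 SPM (4.73 to 6.56; mm9 chr1:122499063-122504568). Barhl2 was at 5.15 SPM (4.32 to 6.08; mm9 chr5:106881541-106887185), and Hesx1, a homeobox repressor of forebrain and pituitary development, at 4.98 SPM (4.18 to 5.91; mm9 chr14:27813547-27815511). Otc, at 4.72 SPM (3.94 to 5.63; mm9 chrX:9829484-9898150), completes the 12 together with the RIKEN clones 1700012B07Rik at 6.67 SPM and 4930547C10Rik at 5.02 SPM. All 12 were listed at 0 in each of the other libraries, as the rule requires. Counted per kilobase, the order was led by Rbmy1a1 at 38.8 SPM, Fabp9 at 13.8, Trim61 at 8.81, Prame at 6.64 and Fam183b at 6.28.

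At the edge of the rule were genes that 1 unit of signal decided. The set included 26 genes at a signal of 1, such as 1700122O11Rik and 4933402N03Rik, each worth 0.00914 SPM. Sry, the Y-linked testis-determining factor, was among these, as was the neuropeptide gene Prlh. Just outside lay Clec2g, a C-type lectin, at 7.85 SPM in male germ cells, left out by 0.00984 SPM in male somatic cells. St8sia5, a sialyltransferase, was at a signal of 438 and was left out by the same male somatic value. In all, 26 genes above 0 in male germ cells had a combined signal of only 1 in the other 3 libraries.

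The genes were short. Their median listed length was 1408 bases (quartiles 913 and 2203), against 2712 bases for genes above 0 in another library and 972 bases for genes at 0 in all 4 libraries. Genes of 3 fragments or more had a median of 1604 bases and those under 3 fragments 1116. The medians of the genes alone in female germ, male somatic and female somatic cells were 1405, 1389 and 1229 bases. A gene of a given level per kilobase gives fewer fragments when it is short, and its part in these medians was not tested.

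The share of genes in the set was lower in each longer bin of length. It was 12.7% of the 1925 genes of up to 1000 bases, 7.99% of the 4595 genes in the next bin and 4.25% of the 4143 in the middle bin. It was 1.81% of the 4593 genes in the bin that ends at 5000 bases and 0.471% of the 2761 genes over 5000 bases. Median fragments in the set were 2.92 in the shortest bin, 8.04 in the bin that ends at 5000 bases and 3.90 in the 13 genes over 5000 bases. The shortest genes were Prlh with 263 bases, Gm5416 with 297 and S100z, a calcium-binding S100 protein, with 302 bases and 0.978 SPM. The 3 longest, Gm10147, Gm10058 and Gm10096, lay on chromosome X with 10476 to 10992 bases and an identical 0.146 SPM each. Their equal values do not tell which copy gave the reads.

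**Figure D2:**
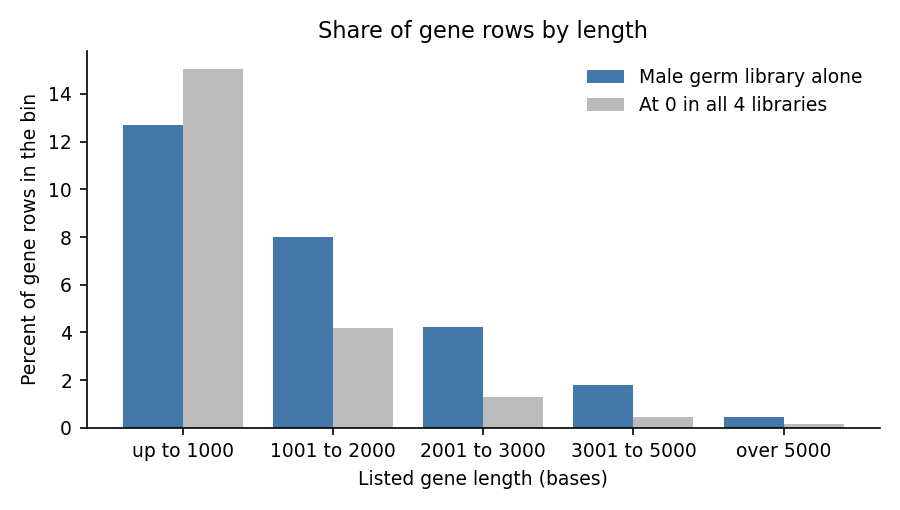
Percent of gene rows in each bin of listed length in bases (x axis) that had signal in the male germ library alone (blue) or were at 0 in all 4 libraries (grey). The blue share is 12.7% up to 1000 bases and 0.471% over 5000 bases, and the grey share declines from 15.1% to 0.181%.

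By chromosome the genes were spread over all autosomes and both sex chromosomes. Chromosome X held 59 of them, 7.54% of its 783 rows, and chromosome Y 3 of only 11 rows. Female cells carry no Y chromosome, so a 0 in the female libraries was hardly a condition for Y rows. The share on chromosome Y is therefore not comparable with the others. Among autosomes the shares were 6.83% on chromosome 4 (81 genes), 6.57% on chromosome 14 and 6.47% on chromosome 7 (89 genes). The lowest were 2.93% on chromosome 2 and 3.15% on chromosome 11, against 4.9% over all chromosomes. Chromosomes X and 6 also held the highest shares of genes at 0 in all 4 libraries, 8.94% and 7.72%. Median levels per chromosome lay between 0.110 SPM on chromosome 10 and 0.288 SPM on chromosome 11, leaving out the 3 genes of chromosome Y.

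**Figure D3:**
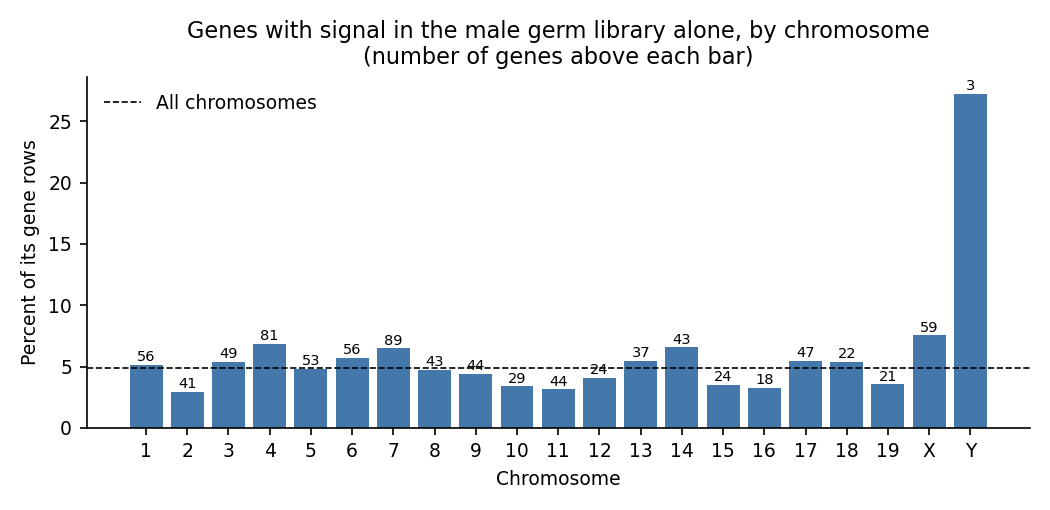
Percent of each chromosome's gene rows that had signal in the male germ library alone, with the number of such genes above each bar and the share over all chromosomes as a dashed line. Chromosome Y stands at 27.3% on 11 rows but is not comparable, since female cells lack it. Chromosome X at 7.54% is the highest of the others.

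The genes lay near each other along the chromosomes. For 238 of the 883 (27.0%) the nearest gene row by start was another gene of the set, and the nearest row was in the set for 16.9% of genes at 0 in all 4 libraries and 3.32% of genes above 0 in another library. The nearest row outside the set was also sought, with rows of the excluded prefixes skipped. That row reached 1 SPM in male germ cells for 47.2% of the genes. The share was 23.8% for genes at 0 in all libraries and 81.1% for genes above 0 elsewhere. The median level of this nearest row was 0.786 SPM for the set.

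With a run defined as at least 3 genes of the set whose starts follow each other within 200 kb, 282 genes (31.9%) fell into 63 runs on 19 chromosomes. Of these runs, 16 had 5 genes or more and 3 had 10 or more. Median levels were 0.146 SPM inside runs and 0.183 SPM outside. Genes at 0 in all 4 libraries were in such runs of their own kind at 47.0%. Of the 59 genes on chromosome X, 11 were in runs. The run of Gm10147, Gm10058 and Gm10096 had starts within 0.017 kb and an equal level in each, so its rows may share reads. How far genes of the other runs share reads was not tested.

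The largest run held 20 genes on chromosome 4 (mm9 chr4:143204905-144276271). It contained members of the PRAME family, leucine-rich-repeat genes amplified in the mouse and known from germ cells and oocytes: Pramef6, Pramef17, Pramel4, Pramel5, Oog2 and Oog3. It also held Gm13083, Gm13088, Gm13078, Gm13023, Gm13084, Gm13109, Gm13102, Gm13128, Gm13125, Gm13124, Gm436, C87977, 1700012P22Rik and the arylacetamide-deacetylase-like gene Aadacl3. Levels ran from 0.0183 to 0.814 SPM, summing to 5.19 SPM, and 12 of the 20 reached 3 fragments. Within the same stretch, Pramef12 was outside the set, at 141 SPM in male germ and 4.54 SPM in female germ cells, and at 0.581 SPM in male and 0 in female somatic cells.

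The second run by size held 14 genes of the kallikrein cluster on chromosome 7 (mm9 chr7:51079913-51476073), which encodes secreted serine proteases. These were Klk6, Klk5, Klk4, Klk15, Klk1b11, Klk1b26, Egfbp2, Klk1b27, Klk1b21, Klk1b16, Klk1b24, Klk1b3, Klk1b4 and Klk1b5. The highest was Klk4, known from enamel formation, at 0.686 SPM, and 7 of the 14 reached 3 fragments. Other kallikreins were above 0 in further libraries, such as Klk8 at 5.46 SPM in male germ and 0.414 SPM in female germ cells, with 8.71 SPM in the male and 8.80 SPM in the female somatic library.

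On chromosome 17 (mm9 chr17:36459804-37047162) a run of 10 joined nonclassical class I genes of the M region, H2-M10.1, H2-M10.3, H2-M10.4, H2-M11, H2-M9, H2-M1, H2-M10.5 and H2-M10.6, with Trim40 and Trim31. Its highest level was 0.622 SPM, and 6 of the 10 reached 3 fragments. A run of 8 on chromosome 6 (mm9 chr6:41252270-41475078) held the trypsin genes Try4, Try5, Try10, Prss2 and Prss3 with Gm5771, Gm5409 and Gm10334. Try4 was at 1.02 SPM, and 4 of the 8 reached 3 fragments.

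Runs of 8 also lay on chromosomes 10 and X. The chromosome 10 run (mm9 chr10:23571267-23829340) held the pantetheinase gene Vnn3 and the trace amine receptors Taar1, Taar4, Taar5, Taar7b, Taar7d, Taar7e and Taar9, none above 0.146 SPM. Only 2 of its 8 genes reached 3 fragments. The X run (mm9 chrX:7904549-8331713) held 7 genes of the Ssx cancer-testis family and Gm14459, Ssxb9 leading at 0.731 SPM, and 6 of its 8 genes reached 3 fragments. Across these 6 runs the levels lay between 0.00914 SPM, in Taar9, and 1.02 SPM, in Try4.

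**Figure D4:**
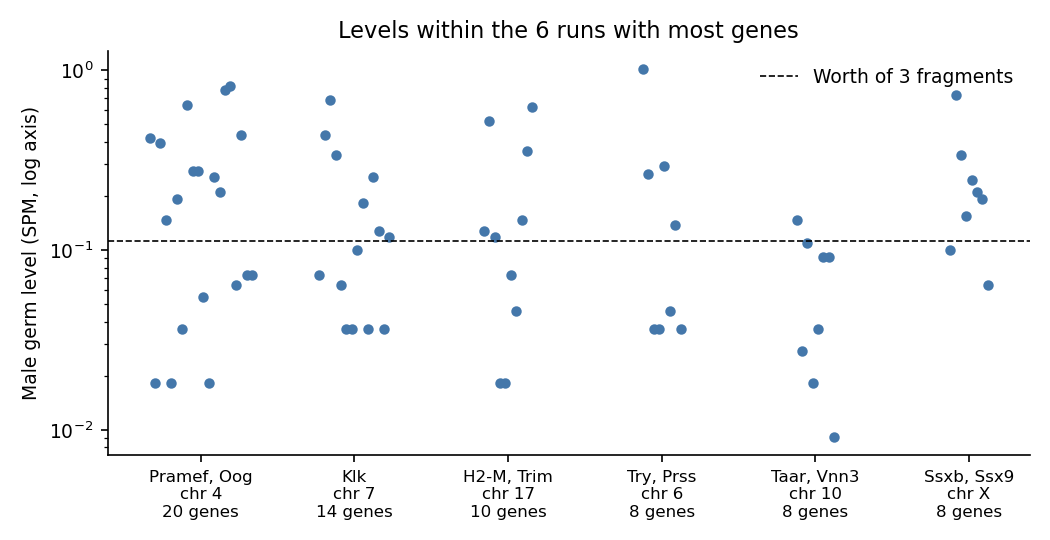
Male germ level in SPM (log axis) of each gene in the 6 largest runs, with the 3-fragment floor of the male germ library as a dashed line. Points lie on both sides of the line in every run, and Try4 at 1.02 SPM is the highest.

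Overlap with another gene row was listed for 126 genes (14.3%), against 16.5% of all rows. A row on the opposite strand overlapped 72 genes (8.15%, against 12.2% of all rows). On the same strand it was 85 genes (9.63%, against 5.92% of all rows). Of rows spanning up to 1 Mb, 7.01% of the set overlapped another gene and 2.76% overlapped a gene of 1 SPM or more in male germ cells, compared with 10.9% and 9.04% of all rows. Some higher genes overlapped in this way. Gm5072 at 4.13 SPM shares its strand with the melanoma-antigen genes Mageb1 at 11.3 SPM and Mageb2 at 11.1 SPM. Rbpjl, a pancreas transcription factor, lies opposite Matn4, a matrix protein gene at 20.4 SPM in male germ cells.

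Promoter windows of 300 bases, from 250 before to 50 after the start, were matched by symbol or synonym for 716 of the 861 genes outside chromosome 18. CpG content was measured as the observed over expected ratio. Its median was 0.167 in the set, 0.129 in genes at 0 in all 4 libraries and 0.701 in genes above 0 in another library. A ratio of 0.75 or more was found in 25 genes of the set (3.49%) and 43.1% of genes above 0 elsewhere, and 85.1% of the set lay below 0.4. The letters TATAAA, searched on both strands, occurred in 21.7% of the windows, in 37.1% of those of genes at 0 in all libraries, in 8.89% of those of genes above 0 elsewhere and in 14.2% of all 27025 windows of the table.

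**Figure D5:**
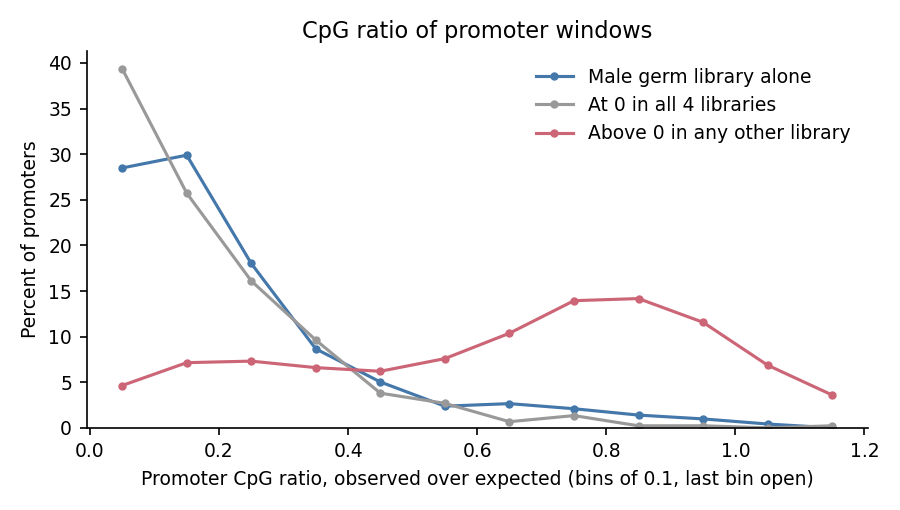
Percent of promoter windows (y axis) by observed over expected CpG ratio (x axis) for genes with signal in the male germ library alone, genes at 0 in all 4 libraries and genes above 0 in any other library. The set and the genes at 0 in all libraries peak at ratios under 0.2, and the third curve peaks between 0.8 and 0.9.

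The 25 genes with CpG-rich promoters stood at a median of 0.311 SPM, and 23 of them (92.0%) reached 3 fragments. Among the 609 genes with a ratio under 0.4 the median was 0.146 SPM and 61.9% reached 3 fragments, although the CpG-rich genes were also longer, at a median of 2361 against 1379 bases. By role, 10 of the 25 were transcription factors, 4 secreted signals or antagonists and 5 genes of neurotransmission, and 6 were given no role. These roles were not counted among other CpG-rich rows, so whether they are particular to the set was not tested. En1 and Barhl2 led, followed by Wnt3a at 2.16 SPM and Gsc, the homeobox factor of the gastrula organizer, at 1.44 SPM. Gad1, which makes the transmitter GABA, was at 0.850 SPM, and the proneural factors Neurod1 and Neurog1 at 0.704 and 0.539 SPM. Zic1, Dmbx1, Hmx3, Sox14 and Nkx2-2, all regulators of neural development, lay between 0.146 and 0.585 SPM. None of the 25 was in a run.

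Gene classes defined by symbol covered 470 of the genes, and 413 were in none. The 470 include 96 RIKEN clones, 106 predicted genes and 9 unnamed loci, whose names tell no gene class. They also include the families grouped after their values had been seen. Sensory and neural receptors lay on both sides of the set's median of 0.155 SPM. The genes of the set had a median of 0.0366 SPM among trace amine receptors, 0.0686 SPM among taste receptors, 0.187 SPM among Gpr receptors and 0.375 SPM among ligand-gated channels. All 15 trace amine receptors were either in the set (7) or at 0 in all 4 libraries (8), with Taar4 highest at 0.110 SPM. Only 1 of the 7 reached 3 fragments. Of 38 taste receptor rows 6 were in the set (15.8%), led by Tas2r125 at 0.265 SPM. Orphan receptors of the Gpr series had 8 of 99 (8.08%), led by Gpr142 at 3.67 SPM. Among ligand-gated channels 5 of 69 (7.25%) were in the set, with the GABA receptor subunit Gabrp at 2.20 SPM and the muscle acetylcholine receptor subunit Chrnd at 1.57 SPM. The share over all rows was 4.9%.

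Secreted proteases and their inhibitors gave many genes of the set, and the share over all rows was 4.9%. Kallikreins had 13 of 26 rows in the set and trypsin-like serine proteases 20 of 61, led by Prss29 at 3.45 SPM and Prss46 at 1.31 SPM. Serpins had 9 of 61, with Serpinb5, the inhibitor known as maspin, at 3.95 SPM, while cystatins had 0 of 21. A short symbol list of pancreatic enzymes (lipases, amylase, carboxypeptidases and chymotrypsins named Ctrb or Ctrl) had 0 of 17, although the trypsin genes above and Ctrc, chymotrypsin C at 0.192 SPM, were in the set. Pregnancy-specific glycoproteins and Ceacam cell-adhesion genes had 12 of 28, led by Ceacam5 at 3.24 SPM.

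Immune genes were present at low levels. Rows listed by symbol as leukocyte surface families were in the set for 17 of 63, where the share over all rows was 4.9%. This list counted the 11 Skint genes, 8 of them in the set, which are also described below as a family. Its highest genes in the set were Treml4 at 2.77 SPM, the B cell gene Ms4a1 at 2.34 SPM and Cd300e at 1.89 SPM. Interleukins had 10 of 40, none above 0.219 SPM, and chemokines 4 of 36, led by Ccl22 at 1.57 SPM. Of the 3 leukocyte markers, Ptprc was listed at 0 in both germ libraries and at 1.60 SPM in male somatic cells. Cd68, of macrophages, was at 2.09 SPM in male germ, 0.493 SPM in female germ and 1.64 SPM in male somatic cells. Csf1r, a macrophage growth factor receptor, was at 1.49 SPM in male germ and 18.7 SPM in male somatic cells. Their part in the immune genes of the set was not tested.

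Rows with the sperm-related prefixes Spata, Tnp, Prm, Odf, Akap, Adam, Catsper, Spag, Spem, Tssk or Tex were in the set for 16 of 124. Of the 124, 103 were above 0 in a library other than male germ. The share in the set over all rows was 4.9%. The highest of the 16 were Adam6b at 3.95 SPM, its paralog Adam6a at 1.37 SPM and Spata16, an acrosome gene, at 1.25 SPM. A symbol list of Fox, Sox, Hox, Pou, Pax, Nkx, Lhx, Dlx, Barx and Obox genes, which does not hold the homeobox genes En1, Barhl2, Hesx1 and Gsc described above, had 12 of 163, with Hoxb13 at 2.31 SPM and Nkx2-6 and Obox6 at 0.859 SPM each. Solute carriers, a class mostly above 0 elsewhere, had 15 of 355. Genes of differentiated tissues included the milk protein Lalba at 1.07 SPM and the eye lens crystallin Crybb2 at 1.29 SPM.

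Some families were grouped after their values had been seen, and their counts are descriptions only. Of PRAME family rows 9 of 15 were in the set, of Skint genes 8 of 11 and of Zscan4 genes 4 of 5. Rows counted as Ssx by symbol had 7 of 10 and Fbxw genes 7 of 21, where the share over all rows was 4.9%. The 10 Ssx rows summed to 165.5 SPM in male germ cells, while the highest in the set was at 0.731 SPM. Whether the higher signal outside the set came from a gene of the same family was not tested. A level of 3 fragments was reached by 7 of these PRAME, 3 Skint, 4 Zscan4, 5 Ssx and 5 Fbxw genes. Zscan4f, of a family marking a transient state of embryonic stem cells, was at 0.7497 SPM, and Zscan4d lay outside the set only through 0.0592 SPM in female germ cells. Skint2, of a family named for thymic selection of skin T cells, was at 1.32 SPM. Oog1, an oocyte gene on chromosome 12, was at 2.37 SPM. The PRAME family rows were only those named Prame, Pramef, Pramel or Oog. Among the 9 so named in the set, Prame and Oog1 stood apart from the other 7, which lay between 0.0183 and 0.640 SPM. The Gm genes of the chromosome 4 run, up to 0.814 SPM in Gm13125, were not counted in this family.

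Genes known by a clone or model name alone were counted as classes of their own. Predicted (Gm) genes had 106 of 594 rows in the set and RIKEN clones 96 of 1089, where the share over all rows was 4.9%. An established gene name is carried by 670 of the 883 genes. By the GRCm38.p6 annotation, 857 of the genes are protein-coding and 6 are long noncoding RNAs.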

How the data were processed

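RNA of 4 sorted cell fractions was measured by RNA-seq, with 1 library each. Build mm9 and the tools CASAVA 1.9, edgeR (unversioned) and TopHat 1.2.0 are listed per the submitters' processing notes, without their roles or order. Which program counted reads, on which annotation, and whether by strand, was not stated in the labels. The deposited gene values, named counts in the file headers, were treated as a scaled and rounded signal, because low values cluster at a step fixed per library. That step was taken as 1 fragment. Only 43.1% to 54.3% of nonzero signals up to 60 lay within 0.5 of a multiple of it, so fragment numbers are estimates. Library totals of the signal were 99322465 to 107493500. Signals were divided by totals adjusted with TMM factors of 0.945 to 1.07. Repeated rows (74) were removed. Python 3.11.15, pandas 2.3.3, NumPy 2.4.6 and SciPy 1.17.1 were used.

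Intervals are exact Poisson at 95% and, like the floors of 3 fragments, cover counting error only, since PCR copies cannot be told from separate molecules. With 1 library per group and genes chosen by their signals, no test was made. The run and TMM steps were tested on simulated data. The genes of the set, the lists and the alternatives were chosen with earlier results of these data known. Named genes followed a fixed rule: the 12 highest, the 5 highest per kilobase, the 3 longest and shortest, every gene of the 5 largest runs, the 3 highest of each class and those at the threshold. The X-linked run, the CpG-rich genes, Trim60, Sry, the overlapping genes, the rows outside the set and 8 families grouped by symbol were picked after their values were seen. All gene coordinates are mm9, whereas promoter windows are GRCm38.p6 and were never converted. The windows of Rbmy1a1 and Fabp9 were not used here, nor were those of chromosome 18.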

Additional observations from a re-analysis of the deposited data

How the results depend on the processing

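No paired analysis was possible because each group had 1 library and no test was made. The count of 883 genes was 552 when at least 3 fragments were asked in male germ cells (525 without the allowance for rounding), 1424 when under 3 fragments were allowed in each other library, 1363 when female germ cells were not required at 0 and 426 when only levels above the floors of the other 3 libraries were kept. It lay between 784.7 and 1264 with repeated rows kept, prefixes kept, the shallowest depth, either somatic library not required at 0, or rows over 1 Mb left out. Median length was 8194 bases as genomic span. The share with a nearest neighbour in the set was 16.5% when the set itself was cut to genes of 3 fragments or more, which leaves fewer possible neighbours, while 26.1% of those 552 genes had a neighbour in the whole set. The share in runs was 20.9% within 100 kb, 44.6% within 500 kb and 44.3% with prefixes kept. Overlap was 8.15% on the opposite strand, 9.63% on the same strand and 7.01% without rows over 1 Mb. The median level was 0.166 SPM without TMM factors and 0.325 SPM among genes of 3 fragments or more, and the mean of 0.617 SPM became 0.465 SPM without Rbmy1a1. The floors, the span limit, the count without the allowance and leaving out Rbmy1a1 were added after seeing the data. The cause of these differences was not tested, apart from the smaller or larger set each setting makes.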

Other observations

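Genes that missed the rule of exact 0 by little held higher levels than the set. In 541 genes the male germ library was above 0 and each other library, though not all at 0, was under 3 fragments. Their median was 0.302 SPM in male germ cells and their median length 1742 bases, and 111 of them reached 1 SPM and 20 reached 5 SPM. The highest was Dbx2, a homeobox factor of the neural tube, at 25.1 SPM in male germ, 0.0592 SPM in female germ, 0 in male somatic and 0.0973 SPM in female somatic cells. Zfy1 and Zfy2, Y-linked zinc-finger genes of spermatogenesis, were at 11.3 and 7.23 SPM in male germ cells, each with 0.0592 SPM listed in female germ cells, which carry no Y chromosome. Cnga3, a channel subunit of cone photoreceptors, was at 8.08 SPM with 0.0197 SPM in female germ cells and 0 in both somatic libraries. These genes were picked after their values were seen.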
